A study of Homo sapiens with 12 samples.

Results

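The genes described here are 35 genes of the unfolded protein response and of the ATF4 branch of the integrated stress response, chosen by name from the 57500 rows of a gene count table. All 35 were found. They fall into 14 chaperones and folding enzymes of the endoplasmic reticulum (ER), 8 stress sensors and transcription factors, 2 outputs of ATF4 (TRIB3 and CHAC1), 6 enzymes of serine, asparagine and folate metabolism, and 5 genes of ER-associated degradation (ERAD) and the translocon. RNA was measured in 12 libraries in 4 groups of 3 biological replicates each. SW480 and SW620 are untreated colorectal carcinoma lines from a primary tumour and a later metastasis of the same patient, grown in DMEM. PEO4 is an ovarian carcinoma line grown in RPMI 1640, either in control medium or with recombinant TGF-β at 10 ng/mL for 6 days. Both media held fetal bovine serum and antibiotics. Each line is a single cell line, so a difference between lines is a difference between those cultures. The study's design gives 2 comparisons, SW620 with SW480 and TGF-β-treated with control PEO4, and PEO4 differs from the SW lines in both tissue of origin and medium.

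Proteins that enter the ER are folded by HSPA5 (BiP) and other chaperones. When unfolded proteins build up, 3 sensors in the ER membrane, ERN1 (IRE1), EIF2AK3 (PERK) and ATF6, start a response: ERN1 splices the mRNA of XBP1, ATF6 is cut to release a transcription factor, and EIF2AK3 phosphorylates eIF2α, which slows translation in general while favouring translation of ATF4. ATF4 is also induced by amino acid shortage through another kinase, and raises genes for amino acid synthesis as well as DDIT3 (CHOP), TRIB3 and CHAC1. Secretory and tumour cells often keep parts of this response active. Gene-level RNA counts do not show the splicing of XBP1 mRNA, the cutting of ATF6 or the translation of ATF4.

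Part of the genes hold promoter elements known to bind the factors of these pathways. RefSeq promoter windows on GRCh38.p14 (250 bases before to 50 after each annotated start) were found for 32 of the 35 genes. Only the 250 bases before the start were searched, in these genes and in all genes, and the 50 after it were left out. PDIA3, PSPH and SHMT2 were not matched. The ER stress response element, searched as CCAAT, any 9 bases and CCACG on either strand, is the site bound by ATF6 or XBP1 with NF-Y. It occurred in 7 of the 32 genes (CALR, CANX, CRELD2, HSP90B1, HSPA5, PDIA6 and XBP1). It occurred in 25 of all 27305 genes with a window, or 0.0916%. The related element of ATTGG, any 1 base and CCACG occurred in HERPUD1, HYOU1 and SDF2L1, against 18 of all genes (0.0659%). The 8 bases TGATGNAA, the core of the composite site bound by ATF4 with C/EBP factors, occurred in ASNS, CHAC1 and HERPUD1, against 1061 of all genes (3.89%). TGACGTGG, the core of the XBP1-preferred element, occurred only in HYOU1 among the 32, against 213 of all genes (0.78%), and there it overlaps a copy of the related element. All elements were searched on both strands. A match describes the letters in the window and is not evidence of binding in these cells.

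The promoters of 6 of these genes are shown because the RNA levels of the same genes are described below: XBP1, PDIA6 and CHAC1 differed between the SW lines, HSPA5 is the central chaperone of the ER, HERPUD1 holds an ATF4-type core beside the related ER stress element, and ASNS is the classical amino acid response gene. Each run is the 250 bases before the start, read 5′ to 3′ on the strand of the gene, with the matched elements in capitals. The positions are chr22:28800570-28800819 (minus strand) for XBP1, chr2:10812786-10813035 (minus) for PDIA6, chr9:125241344-125241593 (minus) for HSPA5, chr16:56931892-56932141 (plus) for HERPUD1, chr15:40953221-40953470 (plus) for CHAC1 and chr7:97872409-97872658 (minus) for ASNS. PDIA6, XBP1 and ASNS have a further annotated start each, which is not shown.
XBP1: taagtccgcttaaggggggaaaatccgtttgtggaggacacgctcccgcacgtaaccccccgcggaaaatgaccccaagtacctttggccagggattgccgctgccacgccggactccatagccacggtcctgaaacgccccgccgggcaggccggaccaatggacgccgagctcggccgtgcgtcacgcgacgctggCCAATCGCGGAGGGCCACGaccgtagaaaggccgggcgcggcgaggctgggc
PDIA6: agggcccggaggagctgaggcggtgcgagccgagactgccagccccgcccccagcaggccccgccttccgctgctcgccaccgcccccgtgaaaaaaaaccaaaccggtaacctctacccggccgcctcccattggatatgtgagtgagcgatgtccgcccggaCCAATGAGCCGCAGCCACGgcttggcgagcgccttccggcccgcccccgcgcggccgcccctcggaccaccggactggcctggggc
HSPA5: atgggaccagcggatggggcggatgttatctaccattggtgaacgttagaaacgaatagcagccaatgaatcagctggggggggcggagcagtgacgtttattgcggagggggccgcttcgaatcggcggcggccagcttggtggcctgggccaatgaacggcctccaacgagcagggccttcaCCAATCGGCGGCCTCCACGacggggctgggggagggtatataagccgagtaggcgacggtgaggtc
HERPUD1: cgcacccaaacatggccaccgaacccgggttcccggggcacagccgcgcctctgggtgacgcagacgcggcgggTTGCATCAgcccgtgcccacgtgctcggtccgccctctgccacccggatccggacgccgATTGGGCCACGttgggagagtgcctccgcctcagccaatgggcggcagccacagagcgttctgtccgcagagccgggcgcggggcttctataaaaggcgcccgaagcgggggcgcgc
CHAC1: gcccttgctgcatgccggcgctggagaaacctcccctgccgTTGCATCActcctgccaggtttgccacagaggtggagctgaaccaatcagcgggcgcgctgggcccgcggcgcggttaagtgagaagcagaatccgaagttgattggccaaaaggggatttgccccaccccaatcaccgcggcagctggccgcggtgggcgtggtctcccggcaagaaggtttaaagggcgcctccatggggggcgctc
ASNS: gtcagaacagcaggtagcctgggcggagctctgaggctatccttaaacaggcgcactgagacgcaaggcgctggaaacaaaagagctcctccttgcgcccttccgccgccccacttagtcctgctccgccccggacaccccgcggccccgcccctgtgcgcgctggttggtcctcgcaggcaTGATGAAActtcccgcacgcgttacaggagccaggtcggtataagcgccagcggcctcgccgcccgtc
In XBP1, PDIA6 and HSPA5 the capitals mark CCAAT and CCACG with 9 bases between them, whose first base lies 52, 86 and 66 bases before the start. In HERPUD1 they mark the ATF4-type core on the other strand, 176 bases before the start, and the related element, 117 bases before it. In CHAC1 and ASNS they mark the ATF4-type core, 209 and 68 bases before the start, on the other strand in CHAC1.

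The libraries held 14531420 to 22028956 counts. A count of 3, the limit that a count of 0 allows, corresponds to between 0.136 and 0.206 CPM (counts scaled to a library of 1000000 counts), and all members other than CREB3L1 stood far above this in all libraries. Levels below are CPM after TMM scaling over the 12 libraries. In such bulk samples, fewer cells with a transcript and less of it per cell cannot be told apart. The lines could be told apart by the summed levels of their markers. The sum of 6 colorectal markers was 89.5 to 299 CPM in the SW libraries and 8.85 to 13.2 CPM in PEO4, where 4 of the 6 had at most 3 counts in every library. CDX1 and GPA33 of this list were low in the SW lines too, at means of 0.12 to 0.49 CPM. The sum of 6 ovarian and Müllerian markers was 107 to 168 CPM in the SW libraries and 3020 to 8600 CPM in PEO4. Most of the PEO4 sum was MUC16, at means of 5666 CPM in control and 2439 CPM in treated PEO4. SOX17 of this list went the other way, at 1.60 and 1.84 CPM in control and treated PEO4 against 2.56 and 2.99 CPM in SW480 and SW620. A list of 6 TGF-β response genes summed to 242 to 498 CPM in control and 831 to 990 CPM in treated PEO4. Markers of leukocytes summed to at most 15.6 CPM in all libraries, highest in SW620 replicate 3, and markers of fibroblasts to at most 17.7 CPM in the SW lines and to 230 to 391 CPM in PEO4, nearly all of it THY1. There are 3 libraries that stand apart. SW620 replicate 3 held counts of 24 genes chosen for at most 0.5 CPM in SW480 and a mean of at least 50 CPM in control PEO4. Their median there was 1.06% of the control PEO4 level, against 0.151% and 0.0355% in SW620 replicates 1 and 2. The SW480 libraries, low by that choice, stood at 0.166% to 0.301%. At a share of 1.06%, PEO4 RNA would make up at most 4.44% of the level of any member in SW620 replicate 3, the highest being DDIT3. That figure covers PEO4 RNA only. The leukocyte markers of this library (15.6 CPM) stood above those of control PEO4 (7.56 to 9.94 CPM), and their origin was not tested. Replicate 2 of both SW480 and SW620 had the lowest totals (14712953 and 14531420 counts) and is described next.

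Within the SW lines, nearly all of the stress genes were lower in replicate 2 than in replicates 1 and 3 after TMM scaling. In SW480 replicate 2, 33 of the 35 genes lay below the mean of the 3 libraries, with a median deviation of -0.34 on the log2 scale, and in SW620 replicate 2 all 35 did, with a median of -0.54. In replicate 3 none of the 35 lay below the mean in either line, and the medians were 0.24 and 0.47. In 31 of the 35 genes replicate 2 was the lowest library of both lines, against 34.7% of all 20941 genes tested. Abundant genes in general moved the same way by less: among 9780 protein-coding genes with a mean of at least 10 CPM, 72.9% lay below the mean in SW480 replicate 2 and 75.5% in SW620 replicate 2, with medians of -0.14 and -0.20. The median deviations were -0.45 and -0.78 for the serine and amino acid enzymes and -0.38 and -0.45 for the chaperones, in SW480 and SW620 replicate 2 respectively. HSPA5 stood at 427, 254 and 475 CPM in SW480 and at 381, 201 and 553 CPM in SW620. Without TMM, on library totals, not every gene was lower in SW620 replicate 2. DDIT3 was then nearly equal in the 3 SW620 libraries, at 16.3 ± 0.05 CPM (SD). CRELD2 had 165 counts in replicate 2 and 157 in the deeper replicate 1. How many of the 35 genes were lower on library totals was not counted. Both replicate 2 libraries also had the highest share of counts on mitochondrial genes in their line, 14.3% against 8.41% and 11.7% in SW480, and 12.8% against 7.59% and 8.69% in SW620. They had the highest share on long noncoding genes too, 3.9% and 4.36% against 1.87% to 3.14% in the other SW libraries. The part of depth and RNA composition in these deviations was not tested. In PEO4 the median deviation of the 34 genes tested lay between -0.09 and 0.10 in all 6 libraries.

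**Figure D1:**
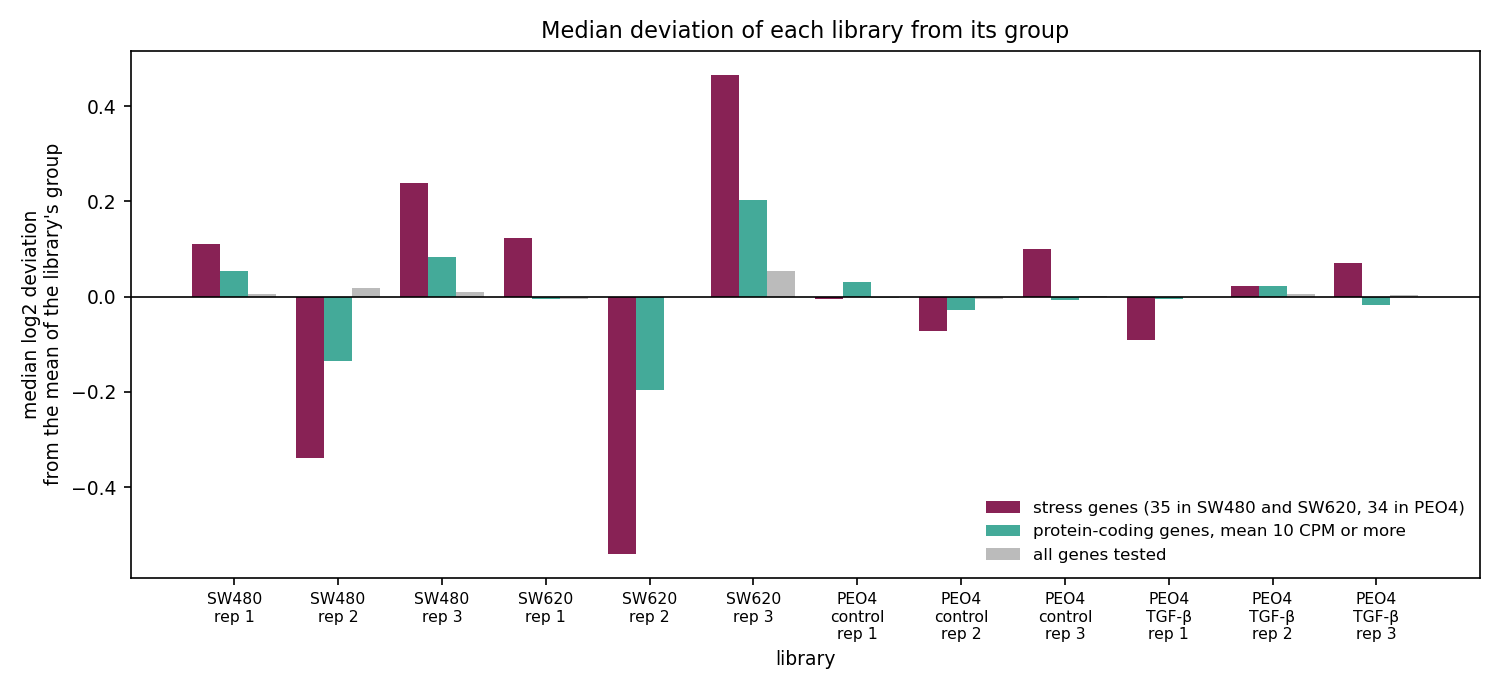
Median log2 deviation of the stress genes (dark red), of protein-coding genes with a mean of at least 10 CPM (green) and of all genes tested (grey) from the mean of the library's own group, for each of the 12 libraries on the x axis. Deviations are on TMM-scaled levels. The stress genes lie at -0.34 and -0.54 in replicate 2 of SW480 and SW620, below the abundant protein-coding genes at -0.14 and -0.20, and stay within about 0.10 of the group mean in PEO4.

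Per kilobase of annotated exon, the chaperones of the calnexin cycle were the most abundant members in the SW lines. CANX, a lectin chaperone of the ER membrane, was at 182 CPM per kb in SW480 and 175 in SW620, and CALR, its soluble counterpart, was at 153 and 169. ATF4 (101 and 151 CPM per kb), PSAT1 (102 and 121), an enzyme of serine synthesis, and HSPA5 (98.6 and 96.8) followed in SW480, while in SW620 HSP90B1 (103 CPM per kb) and PDIA4 (98.98) also stood above HSPA5. In control PEO4 the order was CALR (539 CPM per kb), HSPA5 (465), CANX (196) and HSP90B1, the ER member of the HSP90 family (177). The lowest tested member in every group other than CREB3L1 was CRELD2, a folding helper induced by ER stress, at 1.52 to 1.88 CPM per kb. CREB3L1, an ER-resident transcription factor related to ATF6, was at 1.11 to 1.45 CPM in SW480, at 0.31 to 0.85 CPM in SW620 and at no more than 4 counts in any PEO4 library.

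**Figure D2:**
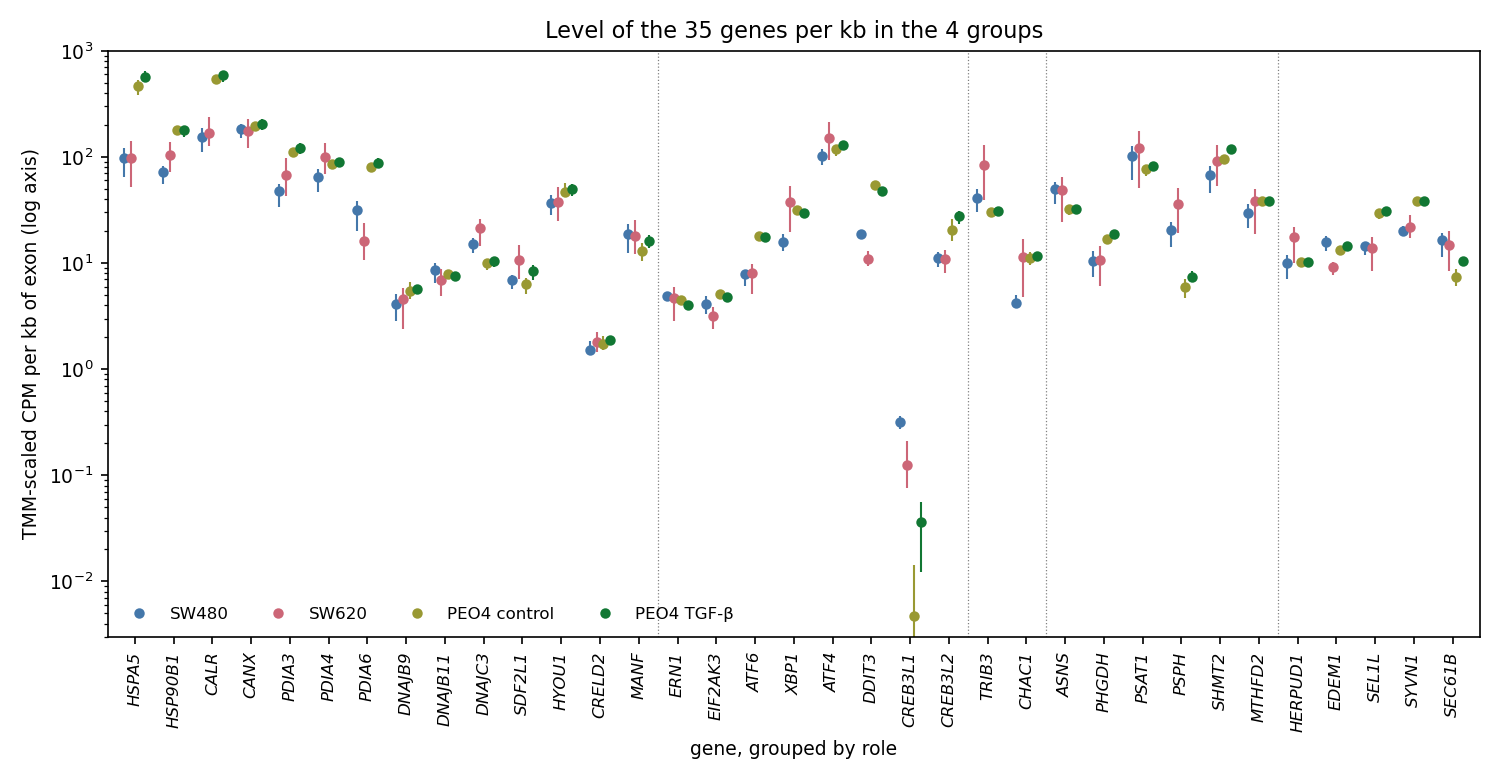
Level of each of the 35 genes in TMM-scaled CPM per kb of merged exon (log axis), grouped by role along the x axis, with points for the mean of 3 libraries and lines from the lowest to the highest library (libraries at 0 are drawn to the lower edge). HSPA5, CALR and PDIA6 stand higher in both PEO4 groups than in SW480 and SW620, and CREB3L1 is near 0 in PEO4.

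SW620 had more XBP1 and CHAC1 RNA and less DDIT3, EDEM1 and PDIA6 RNA than SW480, while the main ER chaperone HSPA5 did not pass the test. With a threshold of 0.05 on the Benjamini-Hochberg adjusted p of edgeR (quasi-likelihood F-test over all genes), 5 of the 35 genes were called, 2 of them higher and 3 lower, where 30.5% of the 20941 genes tested were called (13.5% higher and 17% lower). The 5 genes are 14.3% of the 35. At an unadjusted p under 0.05 the count was 12 of 35, against 8524 of the 20941 genes tested. The median log2 fold change of the 35 genes was 0.13, against 0.03 for all genes tested. Leaving out 1 library moved this median to between -0.09 (without SW620 replicate 3) and 0.34 (without SW620 replicate 2), with -0.05 without SW480 replicate 2 and 0.23 without SW480 replicate 3. The count moved with single libraries: with replicates 1 and 3 of both lines only, 15 genes passed (42.9%), 12 higher and 3 lower, against 36.8% of all genes in that fit. Without SW620 replicate 2 alone 15 passed too, against 33.3% of all genes. In contrast, 1 passed (2.86%) without SW480 replicate 1 and 1 without SW620 replicate 1, against 19% and 19.5% of all genes, and 3 (8.57%) without SW480 replicate 3, against 19.8%. The share of the 35 was therefore below or above that of all genes depending on the libraries. The 10 genes added on the higher side with replicates 1 and 3 were HSP90B1, PDIA3, PDIA4, DNAJC3, SDF2L1, ATF4, TRIB3, PSPH, MTHFD2 and HERPUD1.

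Among the sensors and factors, XBP1 (chr22:28794555-28800597, minus strand, GRCh38), the transcription factor that raises chaperone and ERAD genes once spliced, rose in SW620. It was at 48.0, 39.3 and 57.3 CPM in SW480 and at 124, 59.8 and 160.5 CPM in SW620, in the order of the replicates. Every SW620 library was above every SW480 library, although SW620 replicate 2 stood only just above SW480 replicate 3. The log2 fold change was 1.27 ± 0.31 (SE), or 2.41-fold, with an adjusted p of 0.0130 (edgeR). The adjusted p was 0.0502 without SW480 replicate 1 and 0.0577 without SW620 replicate 1, and the call held in the other 16 of 18 alternative fits.

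DDIT3 (CHOP), a factor induced by ATF4 that promotes cell death under lasting stress, fell in SW620. It was at 23.4, 25.2 and 25.5 CPM in SW480 and at 13.9, 12.3 and 17.0 CPM in SW620. The 2 groups did not overlap, and DDIT3 was one of the few members that was not low in SW480 replicate 2. Its log2 fold change was -0.76 ± 0.17 with an edgeR adjusted p of 0.00766, and it missed the threshold only without SW620 replicate 1 (0.0570). Of the exons of DDIT3 (chr12:57516588-57521737 on the minus strand, GRCh38), 31.6% overlap genes on the opposite strand (MARS and MBD6), and whether the counting used strand is not given in the sources used here.

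ATF4, the factor upstream of both DDIT3 and CHAC1, was at 256, 209 and 298 CPM in SW480 and at 374, 233 and 531 CPM in SW620. The lowest SW620 library lay inside the SW480 range. ATF4's log2 fold change of 0.60 ± 0.28 did not pass (edgeR adjusted p = 0.140, 95% interval -0.03 to 1.22), and it passed in 5 of 18 alternative fits, among them that with replicates 1 and 3 only. CREB3L1 was lower in all 3 SW620 libraries than in any SW480 library, and its log2 fold change of -1.31 ± 0.51 did not pass (0.0844). The 3 sensors ERN1, EIF2AK3 and ATF6 and the factor CREB3L2 had log2 fold changes between -0.35 and 0.06 and did not pass.

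Of the 2 ATF4 outputs, CHAC1 (chr15:40952962-40956519, plus strand), which breaks down glutathione, rose. It was at 7.82, 7.90 and 10.2 CPM in SW480 and at 26.0, 9.80 and 34.9 CPM in SW620. SW620 replicate 2 lay within the SW480 range, and the other SW620 libraries were well above it. CHAC1 differed by a log2 fold change of 1.46 ± 0.38, or 2.75-fold, with an adjusted p of 0.0175, which became 0.0663 without SW480 replicate 1 and 0.0697 without SW620 replicate 1. TRIB3, a pseudokinase that feeds back on ATF4 signalling, had a mean of 140.2 ± 33.7 CPM (SD, n = 3) in SW480 and of 286 ± 156 CPM in SW620. Its log2 fold change of 1.04 ± 0.37 missed the threshold (0.0610) and passed in 10 of 18 alternative fits.

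Among the 14 chaperones, PDIA6 (chr2:10783391-10837977, minus strand), a protein disulfide isomerase, fell and the other 13 did not pass. Of its exon bases 25.2% overlap ATP6V1C2 on the opposite strand. PDIA6 was at 150.6, 81.5 and 157 CPM in SW480 and at 55.3, 43.7 and 97.9 CPM in SW620. The ranges overlap, since SW620 replicate 3 stands above SW480 replicate 2. PDIA6 had a log2 fold change of -0.96 ± 0.32 with an adjusted p of 0.0491, just under the threshold, and the call was lost with RLE scaling (0.0534), with a correction for GC content (0.0829) and without any 1 of SW480 replicates 1 or 3 or SW620 replicates 1 or 2 (0.0981 to 0.215). HSPA5, whose values are given above, had a log2 fold change of -0.01 ± 0.35. Its 95% interval ran from -0.79 to 0.78, so that changes inside this interval were not excluded by these libraries. Of the 14 chaperones, 9 had a log2 fold change above 0, against 10836 of all 20941 genes tested. The highest were SDF2L1 (0.66), PDIA4 (0.64), HSP90B1 (0.56) and PDIA3 (0.54). PDIA3 and PDIA4 are disulfide isomerases like PDIA6, and neither passed (0.209 and 0.108). Of 18 alternative fits, PDIA3 passed in 4 and PDIA4 in 7.

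Among the 5 genes of ERAD and the translocon, EDEM1 (chr3:5187646-5219957, plus strand), a lectin that directs misfolded glycoproteins to degradation, fell. Of its exon bases 9.66% overlap a gene on the opposite strand. It was at 120.3, 87.3 and 109 CPM in SW480 and at 68.7, 52.5 and 64.6 CPM in SW620, and the groups did not overlap. For EDEM1 the log2 fold change was -0.74 ± 0.17 with an adjusted p of 0.0106, which became 0.0935 without SW480 replicate 1 and 0.0581 without SW480 replicate 3. HERPUD1, an ERAD scaffold, had means of 51.3 ± 13.1 and 89.8 ± 33.3 CPM, and its log2 fold change of 0.83 ± 0.29 did not pass (0.0578). It passed in 9 of 18 alternative fits. SEL1L and SYVN1, the core of the HRD1 ubiquitin ligase complex, and SEC61B, a translocon subunit, were between -0.12 and 0.13 and did not pass. Of the 35 genes, XBP1 alone lay higher in every SW620 library than in any SW480 library, against 19.1% of all genes, and DDIT3, CREB3L1 and EDEM1 lay lower, against 23.5%.

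None of the 6 enzymes of serine, asparagine and folate metabolism passed. PSPH, the last enzyme of serine synthesis, had a log2 fold change of 0.83 ± 0.33 (edgeR adjusted p = 0.0883), and the mitochondrial folate enzymes SHMT2 and MTHFD2 had 0.46 ± 0.32 and 0.38 ± 0.33. Of 18 alternative fits, PSPH passed in 8, SHMT2 in 3 and MTHFD2 in 2. PHGDH and PSAT1, the earlier steps of serine synthesis, were at 0.06 ± 0.30 and 0.27 ± 0.41, and ASNS, which makes asparagine, at -0.03 ± 0.33. These genes had wide errors, and their groups overlapped in every case. Of the exon bases of ASNS, 44.6% lie in another gene on the same strand, and 33.2% of those of MTHFD2 lie in genes on the opposite strand, so their counts are uncertain.

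**Figure D3:**
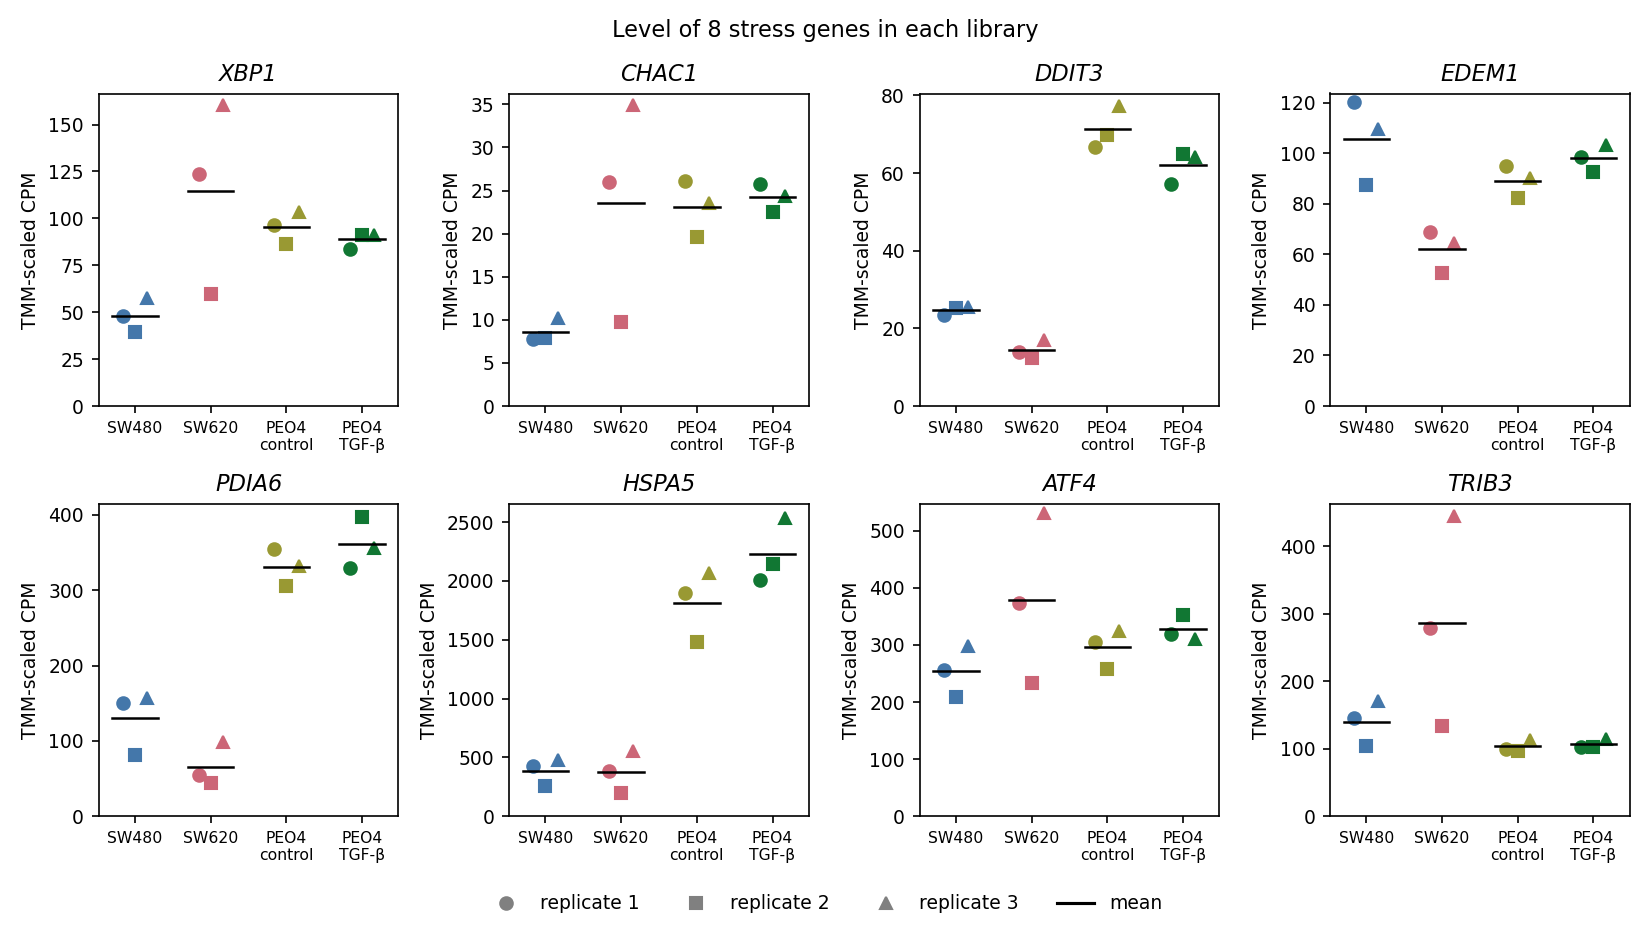
TMM-scaled CPM of 8 genes in each of the 12 libraries, with symbols for the replicate and a bar for the mean of 3. XBP1 is higher in all SW620 libraries than in any SW480 library, CHAC1 is higher except in SW620 replicate 2, which lies within the SW480 range, DDIT3 and EDEM1 are lower in all SW620 libraries, and HSPA5 is between 1483 and 2538 CPM in PEO4 against 201 to 553 CPM in the SW lines.

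A wider set of 139 other genes of these pathways, in 9 lists, was tested in the same fit. Of 135 tested, 27 passed (20%), 18 higher and 9 lower, against 30.5% of all genes. Of the 27 calls, 15 held when each library was left out in turn. Among 17 other sensors and factors tested, 2 rose and 3 fell. NUPR1, a stress-induced chromatin regulator, rose from 1.88 ± 0.35 to 13.8 ± 8.23 CPM (log2 fold change 2.89 ± 0.41), and ATF3, a factor induced by ATF4, rose by 1.49 ± 0.32. ATF5, a factor translated like ATF4, fell by 1.07 ± 0.27 on the log2 scale, a call lost without SW480 replicate 3 or SW620 replicate 1, and CREB3 fell by 0.72 ± 0.20, a call lost in 4 of 6 fits with 1 library left out. Among 9 other ATF4 and CHOP outputs, BBC3 (PUMA), a death gene of the BCL2 family, fell by 1.69 ± 0.29, while DDIT4, an inhibitor of mTORC1, and TNFRSF10B, the death receptor DR5, rose by 1.22 ± 0.34 and 0.79 ± 0.22. Both rises were lost without SW480 replicate 1 or 2 or SW620 replicate 1 or 3, and that of TNFRSF10B also without SW480 replicate 3.

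In 3 lists of amino acid genes outside the 35, 11 of 35 tested genes were called (31.4%, against 30.5% of all genes), 9 higher and 2 lower in SW620. Of 13 tested genes of amino acid and one-carbon metabolism, 5 rose and 2 fell. PYCR1, of proline synthesis, rose from 82.6 ± 19.1 to 231 ± 99.4 CPM. The mitochondrial folate enzyme ALDH1L2 rose by 1.22 ± 0.26 and the alanine transaminase GPT2 by 1.19 ± 0.20 on the log2 scale. The cytosolic folate enzyme ALDH1L1 stood at 10.8 ± 1.42 CPM in SW480 and fell to 0.593 ± 0.221 CPM (log2 fold change -4.15 ± 0.34, edgeR adjusted p = 3.33e-05). Of 10 amino acid transporters tested, SLC43A1 rose by 1.43 ± 0.18 and SLC38A2 by 1.30 ± 0.34, the latter not without SW480 replicate 1, SW480 replicate 2 or SW620 replicate 1. Of 12 aminoacyl-tRNA synthetases, AARS rose by 1.66 ± 0.30, from 195 ± 41.4 to 608 ± 245 CPM, and TARS by 0.87 ± 0.28, a call that held in 1 of 6 fits with 1 library left out. Of 24 other ER folding genes, FKBP11 rose by 1.06 ± 0.17, and ERO1B and FKBP14 fell by 0.92 ± 0.19 and 0.49 ± 0.16, the last in 1 of 6 such fits. Of 30 other ERAD and translocon genes, SSR1, SEC63 and SPCS3 rose by 1.10 ± 0.25, 0.81 ± 0.20 and 0.70 ± 0.23, and only SSR1 passed in all 6 such fits.

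TGF-β treatment of PEO4 for 6 days left the stress genes with small differences, none of which passed. CREB3L1 had too few counts to be tested. Of the other 34 genes, 0 were called by edgeR, where 2.26% of the 19064 genes tested were (1.27% higher and 0.991% lower). DESeq2 and limma-voom also gave 0 of these genes. At an unadjusted p under 0.05 the count was 5 of 34, against 3175 of 19064 genes. The log2 fold changes ran from -0.25 to 0.45 with a median of 0.02, against -0.02 for all genes. Standard errors were 0.07 to 0.18, so that the 95% intervals exclude a 2-fold change in either direction for each of the 34 genes, with no adjustment over the genes.

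HSPA5 was at 1894, 1483 and 2069 CPM in control and at 2007, 2143 and 2538 CPM in treated PEO4. The groups overlapped, with the treated replicate 1 below the control replicate 3. HSPA5 had a log2 fold change of 0.25 ± 0.13 (edgeR adjusted p = 0.386). ATF4 was at 306, 258 and 324 CPM in control and at 319.6, 353 and 311 CPM after TGF-β, with a log2 fold change of 0.10 ± 0.09 (0.626). XBP1 was at 96.3, 86.2 and 103 CPM against 83.6, 91.4 and 91.3 CPM, with a log2 fold change of -0.15 ± 0.08 (0.395). In both genes the groups overlapped.

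DDIT3 was at 66.6, 69.9 and 77.3 CPM in control and at 57.1, 65.0 and 64.2 CPM after TGF-β. All 3 treated libraries lay below the control libraries, and the log2 fold change of -0.25 ± 0.09 did not pass (0.214). ERN1 also lay lower in every treated library, at 41.6 to 44.6 CPM against 47.3 to 51.0 CPM (-0.23 ± 0.08, edgeR adjusted p = 0.199). SHMT2 lay higher in every treated library, at 559 to 604 CPM against 414 to 492 CPM (0.26 ± 0.08, 0.147), and so did SEC61B, at 11.5 to 13.2 CPM against 7.25 to 10.4 CPM (0.45 ± 0.14, 0.168). These 4 of 35 genes, 2 higher and 2 lower, were those whose groups did not overlap, against 12.2% higher and 7.66% lower among all genes tested.

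By role, 12 of the 14 chaperones had a log2 fold change above 0 after TGF-β, with a median of 0.05, and 5 of the 7 sensors and factors tested had one below 0, with a median of -0.15. Among 9774 protein-coding genes with a mean of at least 10 CPM, 5258 lay above 0 and 4516 below, with a median of 0.02. None of the 14 chaperones had an unadjusted p under 0.05 by edgeR, and all had overlapping groups. TRIB3 and CHAC1 were at -0.01 ± 0.09 and 0.03 ± 0.12. Of the genes that differed between the SW lines, PDIA6 was at 331 ± 24.7 CPM in control and 361 ± 34.1 CPM in treated PEO4 (SD, n = 3). EDEM1 was at 89.1 ± 6.47 and 98.1 ± 5.49 CPM, and CHAC1 at 23.1 ± 3.27 and 24.2 ± 1.62 CPM. All 3 had overlapping groups. Among the 134 other pathway genes tested, 2 passed (1.49%). STC2, a secreted glycoprotein induced by ATF4, rose from 236 ± 35.9 to 352 ± 24.5 CPM (log2 fold change 0.53 ± 0.11, edgeR adjusted p = 0.0444), and GLDC, a subunit of the glycine cleavage system, fell from 27.2 ± 6.58 to 13.2 ± 3.40 CPM (-1.10 ± 0.23, 0.0472). Each passed in 1 of the 6 fits with a library left out, that without control replicate 1.

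**Figure D4:**
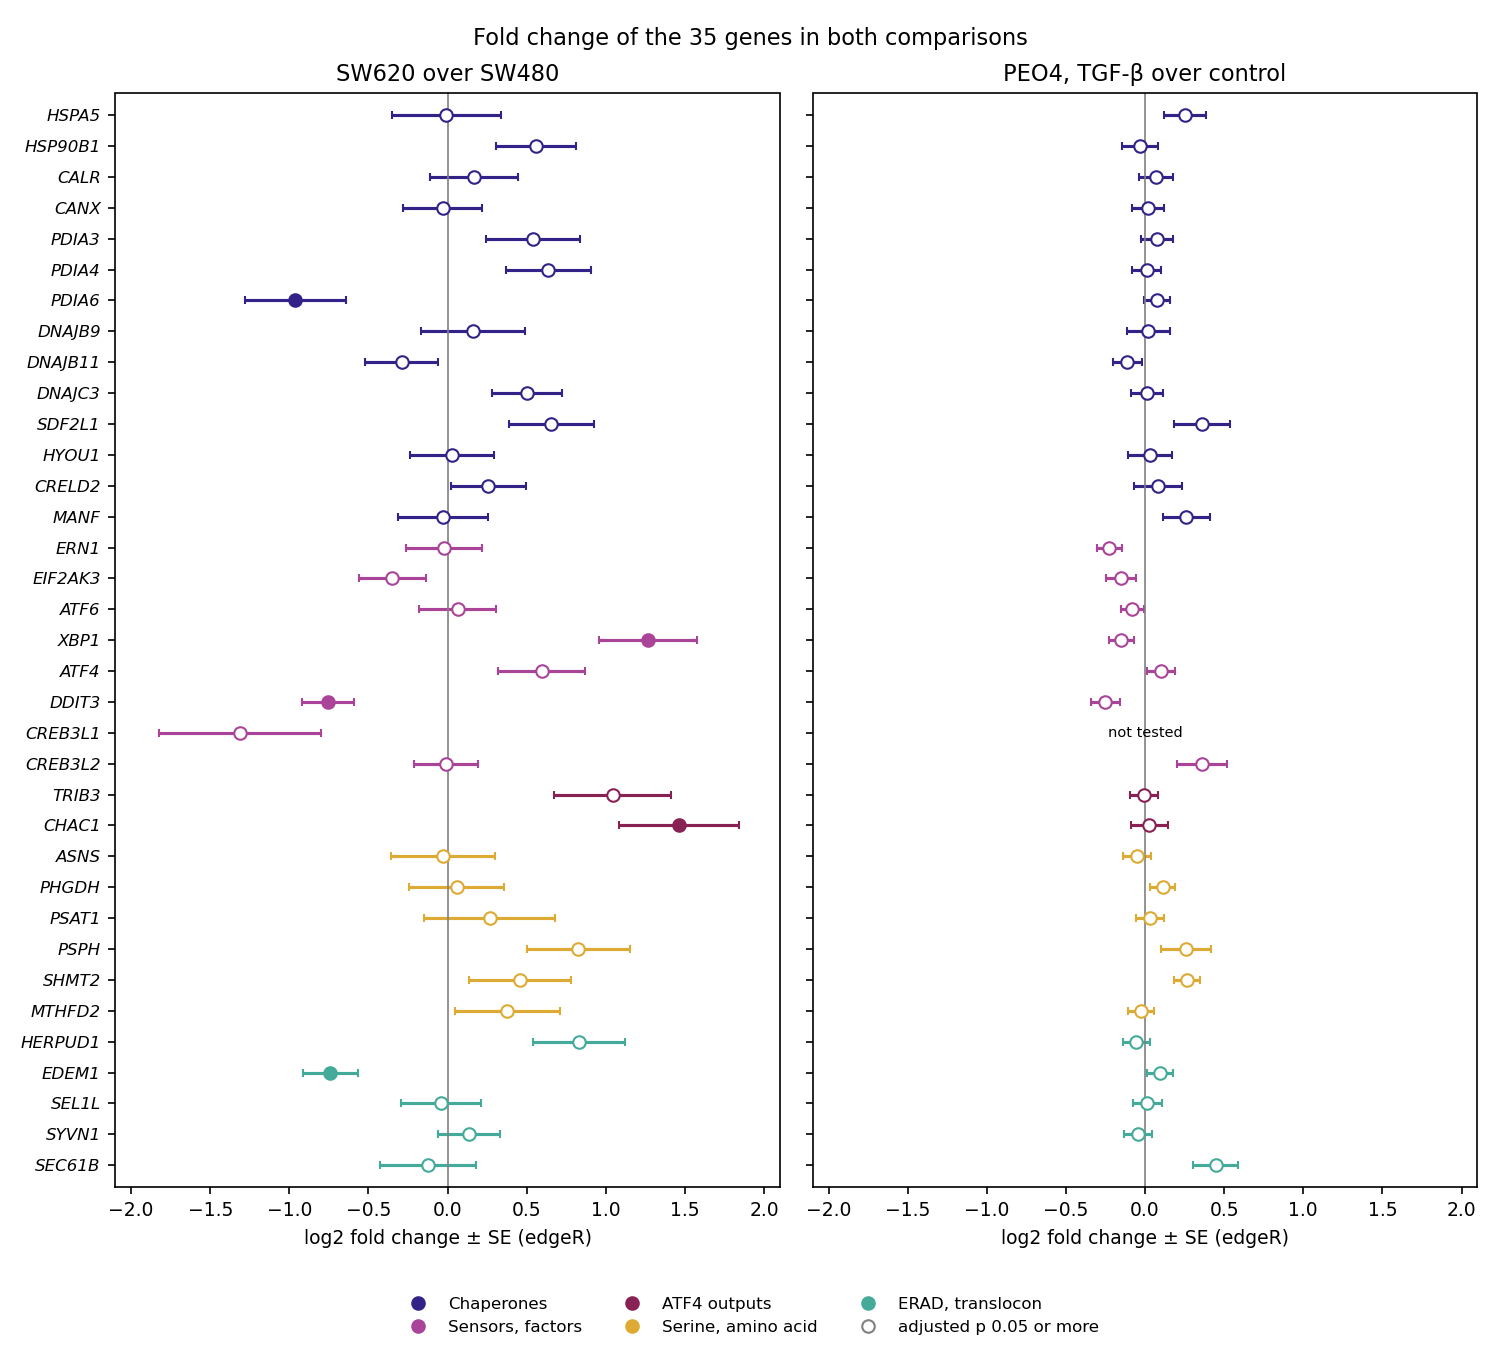
Log2 fold change of the 35 genes from edgeR with its standard error (x axis), for SW620 over SW480 (left) and for TGF-β over control in PEO4 (right), coloured by role, with filled points at an adjusted p under 0.05. Filled points are XBP1, CHAC1, DDIT3, EDEM1 and PDIA6 on the left and none on the right, where the values lie between -0.25 and 0.45.

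Control PEO4 stood apart from both SW lines in part of the genes. These levels are given as a description with no test, because line, tissue of origin and medium cannot be told apart. In 12 of the 35 genes (34.3%) every control PEO4 library was above all 6 SW libraries, against 26.7% of the 17701 genes with a mean of at least 1 CPM. In 3 genes (8.57%) every one was below, against 21.3%. CREB3L1, among these 3, had a mean under 1 CPM over the 12 libraries and so is not among the 17701 genes. The largest ratios of means were those of HSPA5 (1815 CPM against 382 CPM, 4.75-fold), DDIT3 (71.3 against 19.5 CPM, 3.65-fold), PDIA6 (331 against 97.7 CPM, 3.39-fold) and CALR (1462 against 436 CPM, 3.35-fold). ATF6, SEL1L, HSP90B1, PDIA3, CREB3L2, SYVN1, PHGDH and EIF2AK3 followed at 2.29-fold to 1.40-fold. Scaling by library totals in place of TMM lowers the median log2 ratio of all genes from -0.00 to -0.29. On that scale 11 of the 35 genes (all but EIF2AK3 of the 12) stood above all SW libraries, against 20.8% of genes, and 7 stood below, against 29.8%, with TRIB3, MANF, SDF2L1 and SEC61B added.

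The genes lower in all control PEO4 libraries were PSPH (16.3 against 78.2 CPM, a ratio of 0.209), DNAJC3, a chaperone that inhibits eIF2α kinases (55.9 against 101.9 CPM, 0.549), and CREB3L1, which was at or under 1 count there. Genes of 1 pathway stood at unequal ratios. Of the 3 serine synthesis enzymes PHGDH was 1.59-fold higher, PSAT1 overlapped at a ratio of 0.692 and PSPH was lower, and among the sensors ATF6 was 2.29-fold higher while ERN1 overlapped at 0.948. XBP1 and CHAC1 in control PEO4 lay within the range of the SW620 libraries. ATF4 overlapped at a ratio of 0.935.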

How the data were processed

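RNA-seq gene counts were used as deposited by the authors, 1 whole-number count per gene and library. The submitters' processing notes name Trimmomatic 0.36, STAR 2.5.2b, featureCounts, Subread 1.5.2, DESeq2 and GRCh38. Strand use in counting is not given in the sources used here. Libraries were made from total RNA with rRNA depletion, per the labels' protocols, so unspliced and noncoding RNA can be counted. The depth was 14531420 to 22028956 counts. The authors' deposited tables of comparisons were not used.

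For each comparison, the 6 libraries were filtered with filterByExpr, scaled with TMM and tested with edgeR 4.0.16 (quasi-likelihood F-test, R 4.3.3), with Benjamini-Hochberg adjustment over all genes tested and a threshold of 0.05. Standard errors were taken from the fold change and the test statistic, and 95% intervals from the degrees of freedom of the fit. Levels are TMM-scaled CPM over 12 libraries, per kb of merged GENCODE 29 exons where genes are compared. The tests were run on simulated counts first.

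Alternatives were DESeq2 1.42.0, limma-voom (limma 3.58.1), other scalings and filters, all libraries in 1 model, a replicate block and leaving out each library. A GC correction and the fit on replicates 1 and 3 of both SW lines were chosen after seeing the data.

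The 35 genes and the 9 lists of 139 other genes were chosen with earlier results of these data known. All 35 are described by role. Values per library are given for genes called in a comparison and for ATF4, XBP1, DDIT3 and HSPA5, and in part for others near the threshold. Of each other list, at most 4 called genes with the largest change are named. Up to 6 promoters that hold a searched element are shown.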

Additional observations from a re-analysis of the deposited data

How the results depend on the processing

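Of the 35 genes, the count called between the SW lines was 5 with TMM scaling. It was 11 (31.4%) with upper quartile scaling, 13 (37.1%) with total counts, 8 (22.9%) without a filter on low counts, 9 (25.7%) with all 12 libraries in 1 model and 15 (42.9%) with replicates 1 and 3 of both lines. In the same fits 32.9%, 33.1%, 18.1%, 35.9% and 36.8% of all genes were called. Leaving out 1 library gave 1 to 15, the lowest without SW480 replicate 1 or SW620 replicate 1 and the highest without SW620 replicate 2, and 4253 to 7419 for all genes. With the replicate number as a block, 18 of the 35 genes (51.4%) and 10667 genes in all (50.9%) were called, and with the block and a GC correction 18 and 10995. In PEO4, DESeq2 called 923 genes in all, no filter 1457 and all 12 libraries in 1 model 165, against 431. With the block these were 2102, and 2026 with the GC correction as well, and leaving out 1 library gave 72 to 1080. Of the 34 stress genes, 1 was called without a filter (CREB3L2), against 1457 of all 38108 genes tested in that fit. With the block 3 were called, with or without the GC correction (CREB3L2, SHMT2 and SEC61B). In those fits 2102 of 19064 genes were called without the GC correction and 2026 of 18974 with it. The numbers do not pair the libraries by the labels. Deviations of same-numbered libraries correlated at 0.02, 0.67 and 0.57 in the SW lines and at 0.29, -0.14 and 0.48 in PEO4, across genes, and SW480 replicate 1 correlated best with SW620 replicate 3 (0.27). No called gene among the 35 changed sign under the alternatives run. Except where an alternative's construction shows it (fewer libraries or genes), the cause was not tested.

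With 3 libraries a group, changes of the stress genes between the SW lines had standard errors of 0.17 to 0.51 (log2), against 0.07 to 0.18 in PEO4, and the biological coefficients of variation were 0.274 and 0.152.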

Other observations

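Chaperones outside the ER were measured in the same fits. Of 12 cytosolic heat shock genes, all 12 had a log2 fold change above 0 after TGF-β in PEO4, against 9091 of all 19064 genes tested. Their median was 0.34 (range 0.03 to 0.74) against -0.02 for all genes. None was called by edgeR's quasi-likelihood test, against 2.26% of all genes tested. In the same test 7 had an unadjusted p under 0.05, against 3175 of all 19064 genes. In every treated library 3 of the 12 were higher than in any control library, against 12.2% of all genes tested. Libraries of 1 group differed on this list: the median deviation from the group mean was 0.25 in control replicate 1 (0 of 12 genes below the mean), -0.13 in control replicate 3 (10 of 12 below) and -0.15 in TGF-β replicate 3 (11 of 12 below). The 14 ER chaperones had a median of 0.05 in the same comparison. Of 8 mitochondrial folding genes, 4 were above 0 and 4 below.

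Between the SW lines, 1 of the 12 cytosolic genes was called, against 30.5% of all genes tested. HSPH1, a nucleotide exchange factor of the HSP70 system, fell from 219 ± 47.8 CPM in SW480 to 96.6 ± 28.5 CPM in SW620 (SD, n = 3), with a log2 fold change of -1.16 ± 0.24 that passed without any 1 library. TRAP1, the mitochondrial HSP90, rose from 101.5 ± 10.3 to 181.6 ± 53.0 CPM (log2 fold change 0.86 ± 0.21), a call lost without any 1 of the SW480 libraries. The cytosolic genes were also low in replicate 2 of both lines, with median deviations of -0.37 and -0.43 after TMM scaling. The part of depth, scaling or RNA composition was not tested.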
